A study of Homo sapiens and Mus musculus with 12 samples.

Results

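Smooth muscle genes were followed in the colon of mice lacking Zfp280c and of wild-type mice. The 10 genes were picked by name as a list of smooth muscle markers, Myh11, Acta2, Actg2, Tagln, Des, Mylk, Myl9, Cnn1, Synpo2 and Hspb7. All 10 were found by symbol among the 17383 genes of the mouse table, and all 10 were among the 11366 genes tested, those with a mean of at least 1 FPKM. FPKM, a fragment count scaled to transcript length and to sequencing depth, is a level per length, so it can be compared between genes. The 6 libraries were made from polyadenylated RNA of colon tissue, 3 from Zfp280c knock-out mice and 3 from wild-type mice, on C57BL/6J and killed at 12 weeks of age, per the labels. How the knock-out allele was made, the sex of the animals and the stretch of colon taken are not stated in the labels, nor whether each library is 1 animal, so p-values measure the spread between these libraries. The series also holds 6 libraries of a human colon cancer line, which were not used here.

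Smooth muscle shortens when calcium entering the cell binds calmodulin, which switches on myosin light chain kinase. The kinase phosphorylates the regulatory light chain of myosin, and myosin then pulls on actin filaments that are anchored, through dense bodies and desmin filaments, to the cell membrane. In the colon this machinery sits mainly in the circular and longitudinal muscle coats, with more in the thin muscularis mucosae and in vessel walls. Many of its genes are switched on together by serum response factor and its partner myocardin. In bulk tissue, fewer muscle cells and less muscle RNA per cell cannot be told apart.

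FPKM summed to between 491900.5 and 507206.3 per library. Read depth is not given in the sources used here, so values carry no counting interval. Zfp280c itself had 0.09, 0.09 and 0.22 FPKM in knock-out libraries, against 2.48, 2.25 and 3.17 FPKM in wild-type libraries. All 3 knock-outs lay below all 3 wild-types, as labelled (log2 fold change of FPKM + 1 -1.67 ± 0.14, adjusted p = 0.123, limma). The size of that fold change depends on the 1 FPKM added: it was -3.58 with 0.1 FPKM added and -0.57 with 5 FPKM added. One wild-type library stood apart from its group over all genes tested: on a first principal component that held 77.7% of the variance, wild-type replicate 2 lay at -17.7, near the knock-out libraries at -25.4, -19.2 and -18.1, while wild-type replicates 1 and 3 lay at 28.9 and 51.4. The calls for the muscle genes and for the gene lists are therefore given with and without that library.

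All 10 smooth muscle genes had a higher mean in knock-out than in wild-type colon, by 1.20-fold (Tagln) to 1.72-fold (Hspb7), and none of the 10 differences passed the test. Their summed level was 796.5 ± 168.8 FPKM in knock-out and 570.6 ± 156.7 FPKM in wild-type colon (SD, n = 3 each). Library by library the sum was 820, 952 and 617 FPKM in knock-outs 1 to 3, and 452, 748 and 511 FPKM in wild-types 1 to 3. Wild-type replicate 2 was the highest wild-type library, and knock-out replicate 3 the lowest knock-out library, for all 10 genes. The groups therefore met in the middle: wild-type replicate 2 lay within the knock-out range for 9 of the 10 genes, while wild-type replicate 1 lay below every knock-out for all 10 and wild-type replicate 3 for 9.

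**Figure D1:**
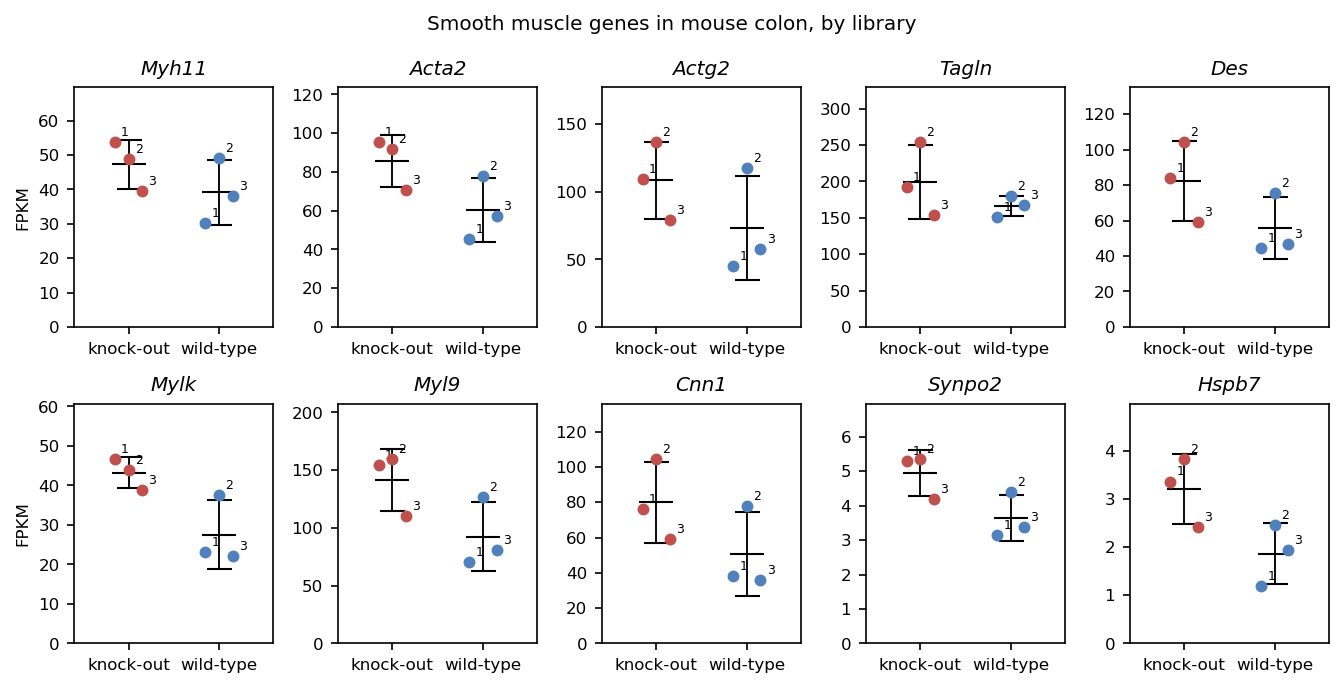
FPKM of each smooth muscle gene in the 3 knock-out (left, red) and 3 wild-type (right, blue) colon libraries. Numbers are replicates, the horizontal bar is the mean and the error bar the SD. Wild-type replicate 2 is the highest wild-type point in all 10 panels, and Mylk is the panel in which the groups do not overlap.

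Myh11, Mylk and Myl9 encode the motor and its switch. Myh11 (Entrez Gene 17880), the heavy chain of smooth muscle myosin, had 53.7, 48.74 and 39.66 FPKM in knock-out libraries, against 30.16, 49.09 and 38.13 FPKM in wild-type libraries. Wild-type replicate 2 lay above 2 of the 3 knock-outs, and the groups overlapped. Its mean was 47.4 ± 7.12 FPKM in knock-out and 39.1 ± 9.50 FPKM in wild-type colon (SD, n = 3 each), and the fitted log2 fold change was 0.29 ± 0.19 (SE; adjusted p = 0.524, limma). It was 0.12 without wild-type replicate 1 and 0.46 without wild-type replicate 2. Log2 fold changes here are of FPKM + 1, knock-out over wild-type, and p-values are adjusted over all 11366 genes by the Benjamini-Hochberg method.

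Mylk (Entrez Gene 107589), the myosin light chain kinase, had 46.7, 43.85 and 38.91 FPKM in knock-out libraries, against 23.02, 37.49 and 22.17 FPKM in wild-type libraries. It was the 1 gene of the 10 whose groups did not overlap, with knock-out replicate 3 and wild-type replicate 2 next to each other. Over all genes tested, 7.13% were higher in knock-out with no overlap, so 1 of 10 is close to the background. The mean was 43.2 ± 3.94 FPKM in knock-out and 27.6 ± 8.61 FPKM in wild-type colon (log2 fold change 0.66 ± 0.20, adjusted p = 0.396, limma). Knock-out libraries varied least for this gene, with a coefficient of variation of 9.13%.

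Myl9 (Entrez Gene 98932), the regulatory light chain that Mylk phosphorylates, had 154.64, 159.75 and 110.6 FPKM in knock-out libraries, against 70.24, 126.61 and 80.74 FPKM in wild-type libraries. Knock-out replicate 3 lay below wild-type replicate 2, and the other knock-outs lay above every wild-type. Means were 141.7 ± 27.0 FPKM in knock-out and 92.5 ± 29.98 FPKM in wild-type colon (log2 fold change 0.64 ± 0.25, adjusted p = 0.396, limma). Myl9 and the nonmuscle light chains Myl12a and Myl12b are close relatives, as are the actins. How the authors' counting divided reads that match several such genes is not stated, so the levels of Myl9, Acta2 and Actg2 are uncertain to that extent.

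Of the actins, Actg2 (Entrez Gene 11468), the gamma actin typical of gut muscle, varied more than Acta2 (Entrez Gene 11475), the alpha actin that is also abundant in vessel walls and myofibroblasts. Actg2 had 109.49, 136.5 and 79.01 FPKM in knock-out libraries, against 44.94, 117.19 and 57.76 FPKM in wild-type libraries. Wild-type replicate 2 was the second highest of all 6 libraries, and the wild-type coefficient of variation, 52.6%, was the largest of the 10 genes. The means were 108.3 ± 28.8 FPKM in knock-out and 73.3 ± 38.6 FPKM in wild-type colon (log2 fold change 0.64 ± 0.37, adjusted p = 0.459, limma).

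Acta2 had 95.26, 91.6 and 70.47 FPKM in knock-out libraries, against 45.26, 77.93 and 57.18 FPKM in wild-type libraries. Knock-out replicate 3 and wild-type replicate 2 crossed, and the other 4 libraries were separated by genotype. The fitted log2 fold change was 0.53 ± 0.21 (adjusted p = 0.396, limma). The ratio of Actg2 to Acta2, a pair chosen after the values were seen, was 1.15, 1.49 and 1.12 in knock-out libraries, against 0.993, 1.50 and 1.01 in wild-type libraries. Both libraries with a ratio near 1.5, knock-out replicate 2 and wild-type replicate 2, thus came from different genotypes.

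Tagln and Cnn1 bind actin filaments. Tagln (Entrez Gene 21345), or transgelin (SM22 alpha), had 191.82, 253.76 and 153.2 FPKM in knock-out libraries, against 151.45, 179.34 and 167.38 FPKM in wild-type libraries. Knock-out replicate 3 lay among the wild-types, which were close together, with a coefficient of variation of 8.43%. Its log2 fold change of 0.24 ± 0.18 was the smallest of the 10 (adjusted p = 0.575, limma), and without knock-out replicate 2 it was 0.05.

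Cnn1 (Entrez Gene 12797), or calponin, had 76.06, 104.57 and 59.28 FPKM in knock-out libraries, against 38.2, 77.98 and 35.98 FPKM in wild-type libraries. Wild-type replicate 2 lay above 2 of the 3 knock-outs, and the other wild-types lay below all of them. Cnn1 had the largest log2 fold change of the 10, 0.70 ± 0.34 (adjusted p = 0.408, limma), with a mean of 80.0 ± 22.9 FPKM in knock-out and 50.7 ± 23.6 FPKM in wild-type colon. The ratio of Tagln to Cnn1, another pair chosen in that way, was 2.52, 2.43 and 2.58 in knock-out libraries, against 3.97, 2.30 and 4.65 in wild-type libraries. Wild-type replicate 2 again stood with the knock-outs.

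Des (Entrez Gene 13346), or desmin, the intermediate filament protein of muscle, had 84.01, 104.14 and 59.28 FPKM in knock-out libraries, against 44.59, 75.75 and 46.73 FPKM in wild-type libraries. The order of libraries was that of Cnn1, except at the low end and between knock-out replicate 1 and wild-type replicate 2. Its log2 fold change was 0.56 ± 0.27 (adjusted p = 0.407, limma).

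Both remaining genes were expressed at a few FPKM. Synpo2 (myopodin, Entrez Gene 118449), an actin-bundling protein of muscle, had 5.3, 5.36 and 4.19 FPKM in knock-out libraries, against 3.14, 4.41 and 3.37 FPKM in wild-type libraries. Its groups overlapped through knock-out replicate 3 and wild-type replicate 2 (log2 fold change 0.36 ± 0.14, adjusted p = 0.396, limma). Hspb7 (Entrez Gene 29818), a small heat shock protein of muscle, had 3.36, 3.83 and 2.42 FPKM in knock-out libraries, against 1.2, 2.45 and 1.94 FPKM in wild-type libraries. Here knock-out replicate 3 fell just short of wild-type replicate 2, and the fitted log2 fold change was 0.56 ± 0.21 (adjusted p = 0.396, limma). Adding 1 FPKM shrinks the changes of these low genes: with 0.1 FPKM added the log2 fold change was 0.44 for Synpo2 and 0.78 for Hspb7.

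Against all genes tested, the 10 were read as follows. At an adjusted p under 0.05 the fit called 0 of 10, and 0% of all genes as higher in knock-out (limma). At an unadjusted p under 0.05, 5 of the 10 were higher (Acta2, Mylk, Myl9, Synpo2 and Hspb7), against 6.02% of all genes. That count of 5 hung on single libraries. It was 0 without knock-out replicate 1 or wild-type replicate 1, and 1 without knock-out replicate 2 or wild-type replicate 3. It was 7 without knock-out replicate 3 and 9 without wild-type replicate 2. The number over all genes moved too. Counted in either direction, 1420 of 11366 genes had such a p with all libraries (limma). Without wild-type replicate 2 it was 3512 of 11344 genes, and with any other library left out it was 509 to 767 genes. All 10 had a positive log2 fold change, with a median of 0.56, against 44.6% of all genes and a median of -0.02. The 10 genes varied together across the libraries, so they do not count as 10 separate observations.

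Leaving out wild-type replicate 2 changed these calls. That library was singled out from these same data, and it was the highest wild-type library for all 10 genes. Its removal therefore widens the difference, and the p-values below are no independent support. Without wild-type replicate 2, 5 of the 10 genes were called higher in knock-out colon: Mylk (log2 fold change 0.90, adjusted p = 0.00382), Myl9 (0.88, 0.0182), Cnn1 (1.05, 0.0229), Actg2 (1.04, 0.0281) and Acta2 (0.73, 0.0281), all by limma. Des (adjusted p = 0.0513), Synpo2 (0.0558), Hspb7 (0.0582), Myh11 (0.0973) and Tagln (0.380) did not pass. In that fit 9.21% of all 11344 genes were called higher and 816 genes were called lower. The comparison rests on 2 wild-type libraries. Leaving out any other single library called 0 of the 10. Markers of other cells were called in the same fit, and their part in the muscle result was not tested. Called higher were 6 of 6 adipocyte genes and 3 of 5 pericyte and vessel muscle genes. So were 5 of 13 epithelial genes and 2 of 10 enteric neuron genes. Called lower were 1 epithelial gene and 2 of the 2 endothelial genes tested there. Calls in the other lists are given below.

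**Figure D2:**
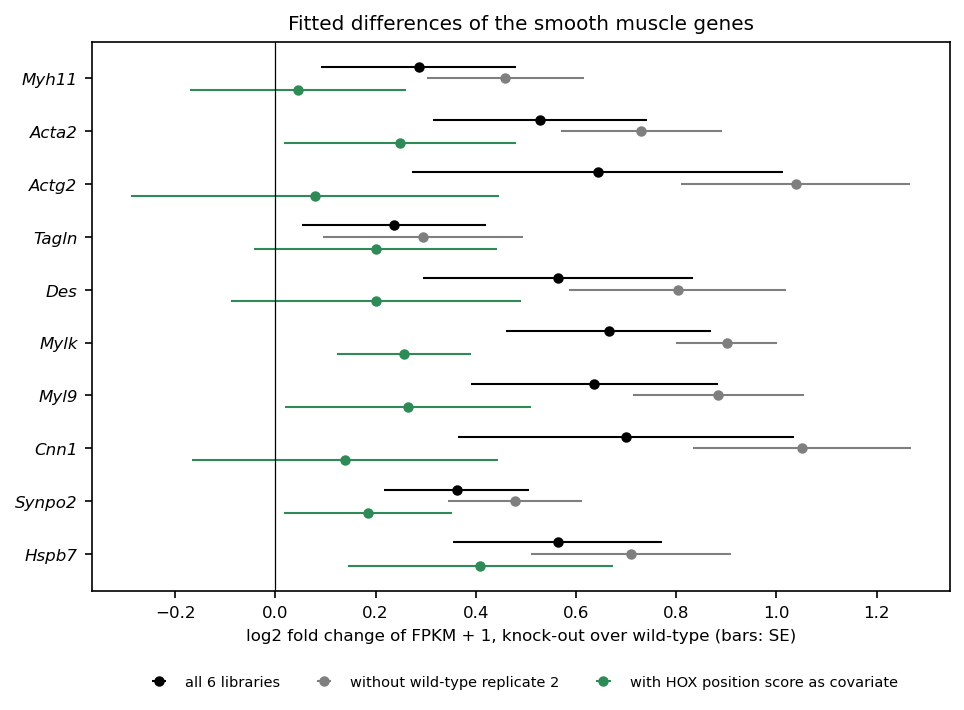
Log2 fold change of FPKM + 1 (knock-out over wild-type) for the 10 genes, with SE bars, from all 6 libraries (black), without wild-type replicate 2 (grey) and with the HOX position score as a covariate (green). All 30 estimates are positive. The grey points lie furthest right for each gene and the green points nearest 0, between 0.05 for Myh11 and 0.41 for Hspb7.

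HOX genes, whose expression is known to vary with position along the gut, differed between libraries, and the muscle genes split the libraries in the same way. A score was taken as the mean log2(FPKM + 1) of 3 genes with a more proximal pattern, Hoxb6, Hoxb7 and Hoxb8, less the mean of 5 distal ones, Hoxb13, Hoxd13, Hoxd12, Hoxd11 and Hoxd10. It was 3.08, 1.92 and 2.39 in knock-out libraries, against -1.60, 2.52 and -4.04 in wild-type libraries. Wild-type replicates 1 and 3 were not alike in every distal gene. Hoxb13 was at 336.32 and 506.98 FPKM in them, against 2.23 to 18.89 FPKM in the other 4 libraries. Hoxd13 was at 0.96 and 68.45 FPKM, and Hoxd10 at 0.26 and 4.57 FPKM, in wild-type replicates 1 and 3. Hoxb6, Hoxb7 and Hoxb8 did not exceed 0.65 FPKM in either. The 4 libraries with a positive score had the 4 highest sums of the muscle genes. Within those 4 the order did not follow the score, since knock-out replicate 2 had the lowest score and the highest sum. Nor did it between wild-type replicates 1 and 3, where replicate 3 had the lower score and the higher sum (511 against 452 FPKM).

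When the score entered the fit, the median log2 fold change of the 10 genes was 0.20, 0 of 10 had a p under 0.05 before adjustment, and the lowest adjusted p was 0.994 (limma). This fit leans on wild-type replicate 2, the only wild-type library with a positive score. Without that library the score was positive in every knock-out and negative in every wild-type library. The labels give no batch and no site of dissection, and genotype and HOX position cannot be told apart further in these libraries.

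**Figure D3:**
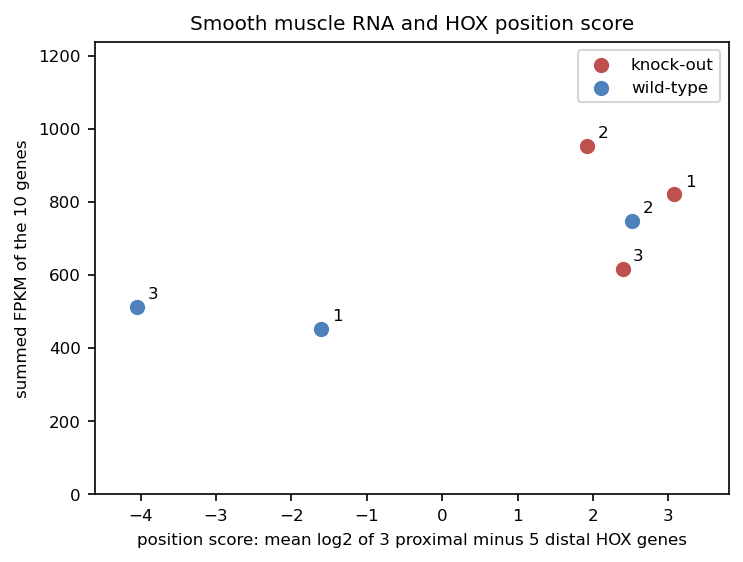
Summed FPKM of the 10 smooth muscle genes (vertical axis) against the HOX position score (horizontal axis, log2 units) in 3 knock-out (red) and 3 wild-type (blue) libraries, with replicate numbers beside the points. Wild-type replicates 1 and 3, at scores of -1.60 and -4.04, had sums of 452 and 511 FPKM; the other 4 libraries had 617 to 952 FPKM.

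The order of the 10 levels was much the same in every library. Tagln was highest (151 to 254 FPKM), followed by Myl9 (70.2 to 160), and each exceeded the next gene in 6 of 6 libraries. Actg2, Acta2, Des and Cnn1 came next: Actg2 exceeded Acta2 in 5 of 6 libraries, Acta2 exceeded Des in 5, and Des exceeded Cnn1 in 3. Differences between genes were not tested. Cnn1 exceeded Myh11 in 5 libraries. Myh11 exceeded Mylk, Mylk exceeded Synpo2 and Synpo2 exceeded Hspb7 in all 6.

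To see whether the genes kept their proportions, each was also expressed as a log2 ratio to the geometric mean of the other 9 in the same library. In these ratios the overall amount of muscle RNA cancels. For Myh11 the ratio was 0.13, -0.19 and 0.10 in knock-out libraries, against 0.30, 0.19 and 0.44 in wild-type libraries. All 3 knock-outs lay below all 3 wild-types, wild-type replicate 2 included, and the means differed by -0.30.

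Tagln's ratio was 2.17, 2.46 and 2.27 in knock-out libraries, against 2.89, 2.27 and 2.81 in wild-type libraries. It split the libraries as the position score did, with wild-type replicate 2 among the knock-outs. Myl9 kept its proportion most tightly, at 1.83, 1.72 and 1.74 in knock-out libraries, against 1.65, 1.71 and 1.64 in wild-type libraries. Its groups also did not overlap, though narrowly (lowest knock-out 1.716, highest wild-type 1.712), with a difference of means of only 0.09. The other 8 genes apart from Myh11 and Myl9 overlapped between groups, with differences of means between -0.36 (Tagln) and 0.28 (Hspb7). No test was made of these ratios, and no share over all genes was taken for them. With 3 libraries against 3, an exact two-sided permutation p could not fall below 0.1, even for groups that do not overlap. Each gene is also part of the reference of the others, so the ratios are not independent.

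**Figure D4:**
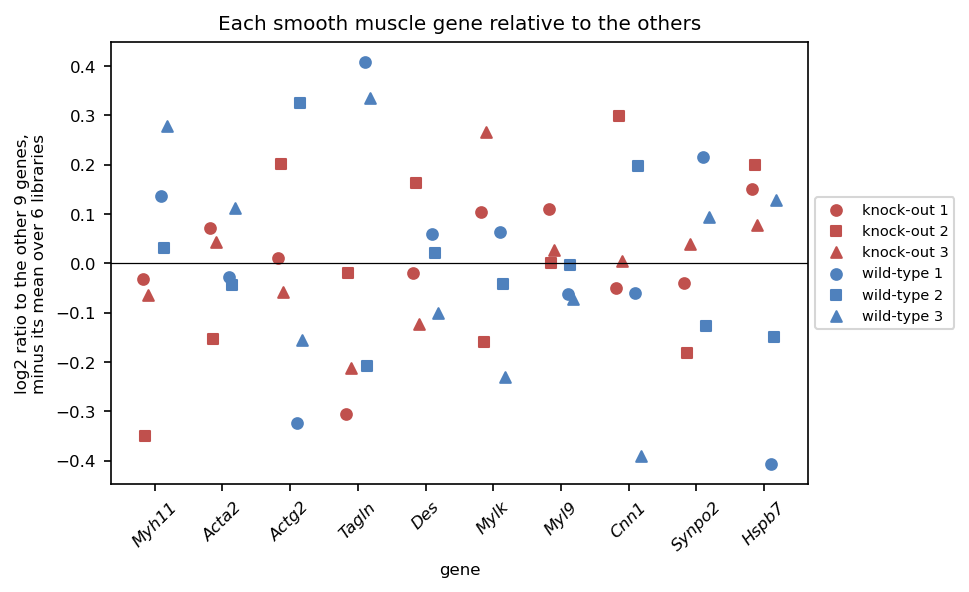
Log2 ratio of each smooth muscle gene to the geometric mean of the other 9 genes, minus its own mean over the 6 libraries, in knock-out (red, left of each tick) and wild-type (blue, right) libraries; marker shapes stand for replicates 1 to 3. For Myh11 all 3 knock-out points lie below all 3 wild-type points, and Myl9 spans the narrowest range. These ratios were not tested.

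Other smooth muscle genes were read from the same fit. Of 30 further contractile and actin cytoskeleton genes, 25 were tested and 22 of these were positive, with a median log2 fold change of 0.26. Limma called 0 of them, and 2 had a p under 0.05 before adjustment. The lowest unadjusted p belonged to Ldb3, a Z-line protein of muscle, at 6.2, 6.46 and 7.02 FPKM in knock-out libraries and 3.03, 5.49 and 2.06 FPKM in wild-type libraries. Fermt2 (0.34), an integrin activator, and Pdlim7 (0.45) were also among the lowest in p, with log2 fold changes in brackets, and did not pass. Without wild-type replicate 2, 6 of the 25 were called higher.

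Among 6 small heat shock proteins and partners, 5 were tested and 4 were positive (median 0.48, 0 called by limma, 1 with p under 0.05 before adjustment). Cryab, alpha B crystallin, had 8.4, 11.47 and 6.59 FPKM in knock-out libraries, against 5.01, 6.98 and 4.11 FPKM in wild-type libraries. Hspb8 (0.33) and Hspb1 (0.60) had positive and Bag3 (-0.16), a cochaperone, a negative log2 fold change. Without wild-type replicate 2, 2 of the 5 were called higher, one of them Hspb6, named after its values were seen (adjusted p = 0.0129).

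Channels and pumps set the calcium level and the membrane potential of the muscle. Of 24 calcium and potassium handling genes, 14 were tested and 9 were positive (median 0.22), with 0 called by limma and 5 higher and 1 lower with p under 0.05 before adjustment. With wild-type replicate 2 left out, 3 were called higher and 2 lower.

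Kcnj8, the pore of an ATP-sensitive potassium channel found in pericytes and vessel muscle, had the lowest unadjusted p of that list. It stood at 3.3, 3.27 and 2.59 FPKM in knock-out libraries and 1.41, 1.8 and 1.23 FPKM in wild-type libraries, without overlap and with wild-type replicate 2 below the knock-outs (log2 fold change 0.71 ± 0.14, adjusted p = 0.396, limma). Pln, phospholamban, which brakes the calcium pump of the sarcoplasmic reticulum, had 4.87, 4.98 and 3.66 FPKM in knock-out libraries, against 1.15, 4.03 and 0.84 FPKM in wild-type libraries. For Pln, wild-type replicate 2 stood among the knock-outs. Orai1 (-0.35), a calcium entry channel, and Abcc9 (0.29), the partner of Kcnj8, completed the 4 lowest in p.

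Many receptor genes were too low to test. Of 18 receptor and guanylate cyclase genes of gut muscle, 7 were tested and 5 were positive (median 0.21, 0 called by limma, 2 higher and 1 lower with p under 0.05 before adjustment). Htr2b (0.57) and Htr4 (-0.82), both serotonin receptors, pointed in opposite directions, and Gucy1b3 (0.40) and Gucy1a3 (0.31) encode the nitric oxide receptor. The muscarinic receptors Chrm2 and Chrm3, named after their values were seen, did not exceed 0.6 FPKM in any library. The fit that left out wild-type replicate 2 called 1 receptor gene higher and 1 lower. Of 20 transcription regulators, 15 were tested and 7 were positive (median -0.03, 0 called by limma and 0 had a p under 0.05 before adjustment).

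Myocardin (Myocd), singled out with its values known, was at 0.14, 0.19 and 0.15 FPKM in knock-out libraries and 0.1, 0.23 and 0.12 FPKM in wild-type libraries, below the minimum for testing. Its partner Srf had a log2 fold change of 0.25, the myocardin relatives Mkl1 and Mkl2 had -0.21 and -0.30, and Fhl1 had -0.78. None of these passed. Without wild-type replicate 2, 1 regulator was called higher and 1 lower, the lower one being Fhl1 (log2 fold change -1.20, adjusted p = 0.0344, limma). Fhl1 had its highest values in wild-type replicates 1 and 3, at 84.25, 107.35 and 104.96 FPKM in knock-out libraries and 159.58, 93.26 and 324.88 FPKM in wild-type libraries.

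Nonmuscle relatives of the 10 genes were compared as well. Of 16 such genes, which serve the cytoskeleton of most cells, 15 were tested and 9 were positive (median 0.09, 0 called by limma, 1 higher and 1 lower with p under 0.05 before adjustment). Actb, the nonmuscle beta actin, had 2264.36, 2344.82 and 1991.12 FPKM in knock-out libraries, against 1863.81, 2138.07 and 1604.32 FPKM in wild-type libraries. Acta2 as a share of Actb was 0.0421, 0.0391 and 0.0354 in knock-out libraries, against 0.0243, 0.0365 and 0.0356 in wild-type libraries, which overlapped. The ratio of Myh11 to its nonmuscle relative Myh9 was 0.632, 0.609 and 0.467 in knock-out libraries, against 0.323, 0.604 and 0.339 in wild-type libraries. Against Myh10, the other nonmuscle heavy chain, it ran the other way, at 53.2, 69.6 and 52.2 in knock-out libraries, against 62.8, 75.5 and 81.1 in wild-type libraries. Myh10 was at only 0.47 to 1.01 FPKM, with a mean below the minimum for testing, so that ratio is uncertain. For Myl9 over Myl12a the ratio was 1.71, 1.79 and 1.33 in knock-out libraries, against 0.925, 1.40 and 1.12 in wild-type libraries. The groups overlapped in all 13 ratios examined, of muscle genes to nonmuscle relatives or to each other, the pair with Myh10 and 4 more having been chosen after the values were seen. Vim (0.41) and Cnn3 (-0.44), the lowest in p, and Tpm3 (0.21) and Cnn2 (0.45) did not pass. Among the nonmuscle relatives, 1 was called higher and 1 lower without wild-type replicate 2.

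Markers of other cells were set beside these results, and their part in them was not tested. Smooth muscle was present in every library: Myh11, Des and Actg2 were at 30.16 FPKM or more in every library, while the striated muscle genes Myh1, Myh2, Myh7, Ttn and Neb did not exceed 0.06 FPKM in any. Of 22 striated muscle genes, 18 were found by symbol in the mouse table and 4 were not. Of the 18, 5 were tested and 3 of these were positive (median 0.07, 0 called by limma, and 0 with p under 0.05 before adjustment). The summed level of the 18 was 13.56 to 16.75 FPKM in knock-out and 17.35 to 18.15 FPKM in wild-type libraries. Ckm, muscle creatine kinase, was at 4.21, 4.28 and 3.27 FPKM in knock-out libraries and 0.96, 4.01 and 1.03 FPKM in wild-type libraries. Acta1 was also expressed, at 5.87 to 12.11 FPKM, and Tnnt2 was at 0.48 to 1.23 FPKM except in wild-type replicate 3, at 6.53 FPKM. The log2 fold changes of Acta1 (-0.44), Mylpf (0.29) and Tnnt2 (-0.59) showed no common direction. Of these 5, 1 was called higher without wild-type replicate 2.

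Of 11 pericyte and vessel muscle markers, 5 were tested and 4 were positive (median 0.54, 0 called by limma, 3 with p under 0.05 before adjustment), and their sum was 37.48 to 48.29 FPKM in knock-out and 13.86 to 38.55 FPKM in wild-type libraries. Rgs5, which made up most of that sum, had 33.63, 29.36 and 25.25 FPKM in knock-out libraries, against 9.65, 26.6 and 7.02 FPKM in wild-type libraries. Rgs4 (0.63), Mcam (0.54) and Gucy1a3 (0.31) were the others lowest in p. Acta2, Tagln, Myh11, Mylk, Myl9 and Cnn1 are also expressed by vessel muscle.

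Adipocyte genes, 6 tested of 10, were all positive (median 2.01, 0 called by limma, 6 with p under 0.05 before adjustment), with sums of 72.21 to 152.63 FPKM in knock-out and 11.15 to 53.92 FPKM in wild-type libraries. Adipoq had 6.02, 2.35 and 8.9 FPKM in knock-out libraries and 0.18, 1.21 and 0.13 FPKM in wild-type libraries. Knock-out replicate 2, highest in muscle RNA, was lowest of the knock-outs in adipocyte RNA. Cfd (2.93), Fabp4 (2.13) and Retn (0.98) were the others lowest in p.

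All 10 enteric neuron genes tested of 15 were positive (median 0.27, 0 called by limma, and 0 with p under 0.05 before adjustment), with sums of 44.24 to 65.88 FPKM in knock-out and 29.6 to 58.34 FPKM in wild-type libraries. Stmn2 (0.45), Snap25 (0.39), Tac1 (0.42) and Gap43 (0.39) were lowest in p. With the HOX score in the fit, 1 of the 10 neuron genes was positive. In that fit all 10 smooth muscle genes were positive, as were 6 of 6 adipocyte genes, 20 of 25 contractile genes and 4 of 5 pericyte genes. For other lists it was 9 of 14 calcium and potassium handling genes and 4 of 6 mesothelial genes. It was 9 of 19 fibroblast, 4 of 13 epithelial and 2 of 10 leukocyte genes. The median log2 fold change over all genes was -0.04 there, and 0 of the 10 muscle genes had an unadjusted p under 0.05 (limma). The lists were not tested against each other.

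Epithelial genes, 13 tested of 14, had a median of 0.12 with 9 positive (0 called by limma, 2 higher and 1 lower with p under 0.05 before adjustment). Their sum, mostly Car1, Krt8 and Lgals4, was 17585 to 20799 FPKM in knock-out and 13447 to 20027 FPKM in wild-type libraries. The general epithelial marker Epcam, named after its values were seen, had overlapping groups, with 984, 1061 and 1029 FPKM in knock-out libraries, against 1017, 1047 and 917 FPKM in wild-type libraries. Car1 (1.57), Slc26a3 (-1.34), Vil1 (0.30) and Krt20 (0.65) were lowest in p.

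**Figure D5:**
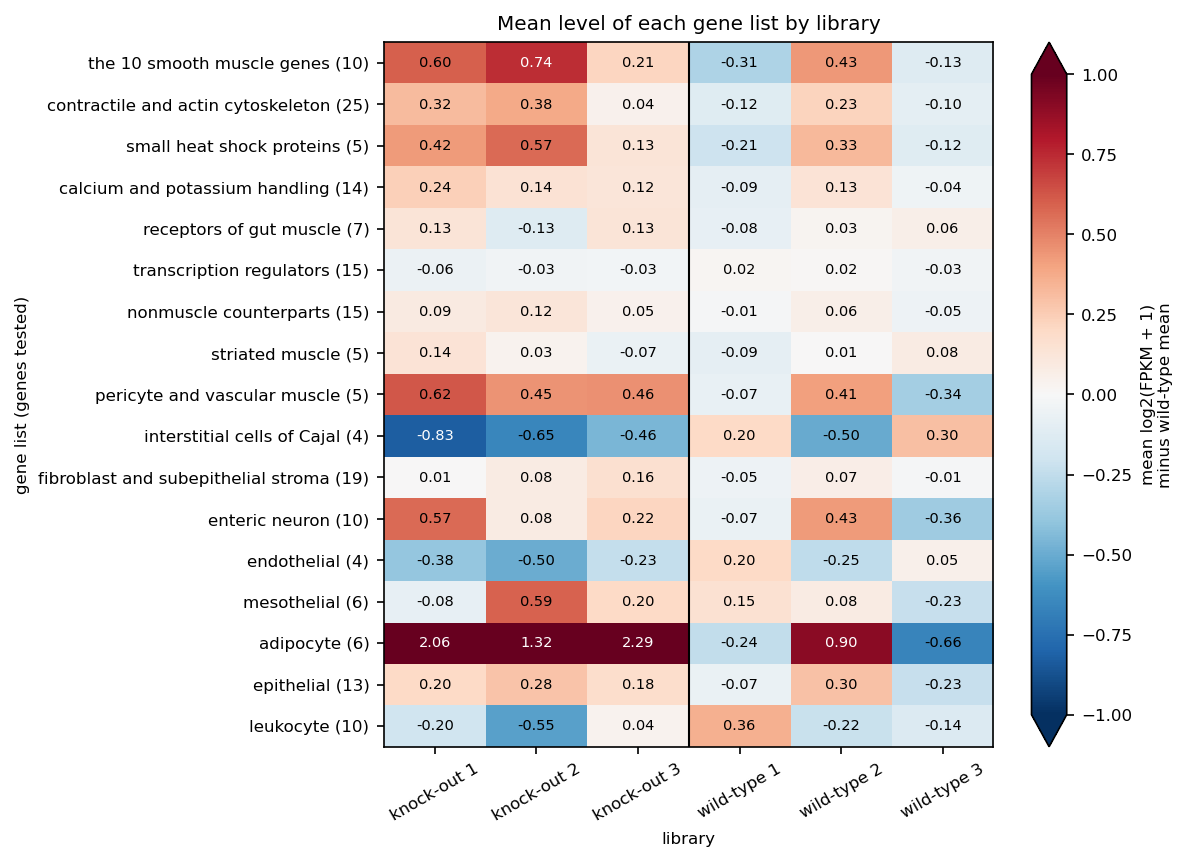
Mean log2(FPKM + 1) of each gene list minus its wild-type mean, in the 3 knock-out and 3 wild-type colon libraries; the number of genes averaged is in brackets, and colours end at -1 and 1. The 10 smooth muscle genes stood at 0.60, 0.74 and 0.21 in knock-out libraries and at -0.31, 0.43 and -0.13 in wild-type libraries, and adipocyte genes ranged furthest of the lists drawn, from 2.29 in knock-out replicate 3 to -0.66 in wild-type replicate 3.

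Connective tissue, mesothelial, glial, endothelial and leukocyte lists complete the comparison. Of 20 fibroblast and stroma genes, 19 were tested and 12 were positive (median 0.11; Lum, F3, Wnt5a and Sox6 lowest in p). Their sum was 139 to 170 FPKM in knock-out and 143 to 173 FPKM in wild-type libraries. Of 9 mesothelial genes, which mark the serosal surface, 6 were tested and 5 were positive (median 0.20; Upk1b, Gpm6a, Upk3b and Rspo1). The serosal marker Msln, singled out with its values known, was at 1.61, 4.62 and 3.21 FPKM in knock-out libraries and 3.34, 2.3 and 2.42 FPKM in wild-type libraries. Of 10 glial genes only Erbb3 was tested (0.20), of 14 endothelial genes 4 were tested and all were negative (median -0.39; Plvap, Pecam1, Lyve1 and Egfl7), and of 12 leukocyte genes 10 were tested with 3 positive (median -0.24; Cd3g, Cd3e, Lyz2 and Jchain). In these 5 lists 0 genes were called by limma, and 3 higher and 2 lower in all had a p under 0.05 before adjustment. When wild-type replicate 2 was left out, fibroblast genes had 2 called higher and 1 lower, mesothelial genes 1 higher, and leukocyte genes 2 higher and 1 lower.

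By rule, the genes most like the 10 were sought among 8051 others with a mean of at least 5 FPKM, by the root-mean-square distance over the 6 libraries from the mean log2 profile of the 10. The 8 nearest were Pdlim7 (0.082), Marveld1 (0.098), Cald1 (0.104), Epha2 (0.104), Asap1 (0.112), 4931406C07Rik (0.112), Fxyd1 (0.116) and Fam101b (0.116), distances in log2 units. The 10 genes themselves lay between 0.074 (Myl9) and 0.227 (Tagln). Pdlim7 had 9.13, 10.08 and 6.75 FPKM in knock-out libraries, against 5.26, 8.03 and 5.02 FPKM in wild-type libraries. Cald1, caldesmon, an inhibitor of the actin and myosin interaction, had 17.64, 21.77 and 13.77 FPKM in knock-out libraries, against 11.51, 17.37 and 11.07 FPKM in wild-type libraries. Wild-type replicate 2 lay between knock-out replicates 1 and 3 for both genes.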

How the data were processed

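The mouse table holds FPKM for each gene and library, computed by the authors and given to 2 decimals, per the labels. HTSeq, HISAT, edgeR and Bowtie2 are named, without versions or roles, per the submitters' processing notes. The only genome build named there for these mouse libraries is hg19, a human build. A mouse build is not given in the sources used here, so no positions or sequences are given. No per-sample column of that table was left out, and the human cell line table was not used. Genes with a mean of at least 1 FPKM were compared on log2(FPKM + 1) with limma 3.58.1 in R 4.3.3 (variance trend, Benjamini-Hochberg over all genes, threshold 0.05), in 3 knock-out against 3 wild-type libraries. The procedure was checked on simulated data. Named genes were the 10 genes in full, the 4 with the lowest unadjusted p of each list, and the 8 genes nearest in profile. One gene that this rule names and one gene list are not reported here. The genes, lists, position score and alternatives were chosen with earlier results of these data known. Alternatives were other pseudocounts and minimum means, 4 rescalings, a robust variance prior, the replicate block, the position covariate and each library left out.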

Additional observations from a re-analysis of the deposited data

How the results depend on the processing

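In 10 alternative settings (pseudocounts of 0.1 and 5, minimum means of 0.1 and 5 FPKM, 4 rescalings, the robust variance prior and the replicate block) the median log2 fold change of the muscle genes stayed between 0.51 and 0.61, and 0 of them and 0 genes in all were called (limma; 1043 to 1751 genes at an unadjusted p under 0.05). Synpo2 and Hspb7 fall below the minimum mean of 5 FPKM. The position covariate gave 0 calls too. Over the 6 fits that left out a library, that median ran from 0.37 to 0.77, genes called from 0 to 1861, muscle genes called from 0 to 5, and Zfp280c from -1.75 to -1.57 (log2 fold change; -1.67 with all libraries, adjusted p = 0.123). In the other settings Zfp280c ran from -3.58 to -0.57, the ends set by the pseudocount, and its adjusted p was 0.0504 at the minimum mean of 0.1 FPKM. Every count above 0 came without wild-type replicate 2, where Zfp280c passed as well (adjusted p = 0.00205). No sign of the 10 genes turned in any of these fits.

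The replicate block called 0 genes and 0 muscle genes, but 8 muscle genes had an unadjusted p under 0.05 (limma), against 5 without it. Over all genes tested that number was 1242 with the block and 1420 without it. Over all genes tested, same-numbered libraries did not deviate together (correlations of -0.45, -0.14 and 0.15), so the numbers were not taken as pairs. Among the muscle genes, replicate 2 was highest for all 10 in wild-type and for 7 in knock-out colon. Replicate 3 was lowest for all 10 in knock-out but for only 2 in wild-type colon. With 3 libraries a group and no read depth in the table, small differences cannot be shown.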

Other observations

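Interstitial cells of Cajal, the pacemaker cells of gut muscle, were marked by 6 genes, of which 4 were tested, 2 positive and 2 negative (median log2 fold change -0.69; 0 passed in limma, 2 lower at an unadjusted p under 0.05). Without wild-type replicate 2, Ano1 and Thbs4 were called lower (log2 fold changes -2.22 and -2.15, adjusted p = 0.00386 and 0.00425, limma). The genes did not share a direction. Kit, the receptor that defines these cells, had 9.62, 6.01 and 9.4 FPKM in knock-out libraries, against 5.41, 10.07 and 4.77 FPKM in wild-type libraries (0.31), and Etv1 stood at 0.10. Ano1, their chloride channel, had 7.61, 13.69 and 13.61 FPKM in knock-out libraries, against 50.53, 11.33 and 62.19 FPKM in wild-type libraries, and Thbs4 had 19.36, 31.16 and 33.68 FPKM in knock-out libraries, against 105.97, 31.97 and 147.5 FPKM in wild-type libraries. For Ano1 and Thbs4, wild-type replicate 2 lay with the knock-outs, and wild-type replicates 1 and 3 lay above all others. Kit also marks mast cells, and Ano1 is also known from epithelia.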
